A study of Homo sapiens with 32 samples.

Results

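The mitochondrial ribosomal protein genes were followed through a short incubation of HEK293 cells with 4-thiouracil. They were taken as the gene entries whose symbol starts with MRPL or MRPS followed by a digit and that held at least 50 counts over all 32 libraries, which gave 72 genes out of 32738 entries. Of these genes, 43 carry an MRPL and 29 an MRPS symbol. By their place in the ribosome, 45 encode proteins of the large subunit and 26 proteins of the small subunit. The remaining gene, MRPS36, is named as one of them but encodes a subunit of the alpha-ketoglutarate dehydrogenase complex. Another 7 entries fitted by symbol and fell under the minimum. MRPL12, MRPL53 and both entries named MRPL30 held 0 counts in all libraries together. If their reads could be counted at all, this allows a level of up to 0.308 CPM (counts per 1000000 counts, from 3 counts of 9742052, counting error only). Whether they could be is not known, as the annotation used for counting is not given. The first of 2 entries named MRPS17 held 2 counts, the antisense entry MRPL23-AS1 held 4 and MRPL38 held 7. Just inside the minimum stood MRPL23 with 53 counts, MRPS24 with 69 and MRPS28 with 91.

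HEK293 is a long-established human cell line derived from embryonic kidney, and 4-thiouracil is a modified base with which newly made RNA can be tagged. The groups were HEK293 cells incubated for 0, 5, 15 or 30 min, with no genotype or further treatment named in the labels, and 2 biological replicates (called cultures here) per time. Each culture was read as 2 cDNA preparations with 2 libraries each, all from polyadenylated RNA. The library titles begin with TTSeq. Beyond that name the labels state neither what was given to the 0 min cells nor if tagged RNA was purified. Each value is thus a share of whichever RNA was counted, and whether the same kind of RNA was counted at every time is not known. In such bulk libraries fewer cells with a transcript and less of it per cell cannot be told apart.

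Mitochondria hold their own ribosomes, which translate the few messenger RNAs made from mitochondrial DNA, all of them for proteins of the respiratory chain and ATP synthase. The ribosomal RNAs come from mitochondrial DNA too, but every ribosomal protein is encoded in the nucleus, made by cytosolic ribosomes and imported. Many of these proteins have counterparts in bacterial ribosomes, and others are found in mitochondria only. Symbols do not always tell the subunit: MRPS30 and MRPS18A encode proteins that sit in the large subunit. Promoters of nuclear genes for mitochondrial proteins are known for sites of NRF1, of YY1 and of ETS family factors such as GABP.

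Short forms of these sites were found in the genes' own promoters. The labels of the stretches printed below name only matches within those stretches. The stretches below are the 100 bases before the annotated start of genes whose counts moved in different ways, from RefSeq on build GRCh38.p14, in the direction of transcription, 5′ to 3′. MRPL40 and MRPL52 had the largest decreases at 30 min, MRPL17 and MRPL44 were low at 5 min and higher again at 30 min, and MRPL3, MRPS27 and MRPS30 were the genes with an increase. Capitals mark a match to the ETS letters CCGGAAG, the NRF1 letters GCATGCG, the YY1 letters AAGATGG or the CCAAT box, on either strand.
MRPL40, chr22:19432445-19432544, plus strand, with an ETS match: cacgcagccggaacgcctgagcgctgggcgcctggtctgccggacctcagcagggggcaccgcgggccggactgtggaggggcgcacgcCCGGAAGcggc
MRPL52, chr14:22829787-22829886, plus strand, with YY1 matches: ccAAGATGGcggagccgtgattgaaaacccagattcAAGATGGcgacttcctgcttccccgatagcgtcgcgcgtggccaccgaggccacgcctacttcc
MRPL17, chr11:6683341-6683440, minus strand, with NRF1 matches that lie on both strands at once: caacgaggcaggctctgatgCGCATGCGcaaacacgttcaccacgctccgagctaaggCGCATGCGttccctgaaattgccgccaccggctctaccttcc
MRPL44, chr2:223957363-223957462, plus strand, with no match: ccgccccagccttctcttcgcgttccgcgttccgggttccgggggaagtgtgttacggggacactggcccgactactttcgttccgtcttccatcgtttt
MRPL3, chr3:131502972-131503071, minus strand, with an ETS match: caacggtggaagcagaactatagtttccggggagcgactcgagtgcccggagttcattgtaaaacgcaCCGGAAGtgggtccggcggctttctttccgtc
MRPS27, chr5:72320241-72320340, minus strand, with a CCAAT match: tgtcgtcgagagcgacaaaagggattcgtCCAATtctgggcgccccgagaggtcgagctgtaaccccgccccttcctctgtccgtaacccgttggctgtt
MRPS30, chr5:44808847-44808946, plus strand, with a CCAAT match on the other strand: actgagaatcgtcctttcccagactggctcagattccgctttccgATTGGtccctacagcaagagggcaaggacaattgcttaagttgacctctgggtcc

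A RefSeq promoter of 250 bases before to 50 bases after the start was at hand for 63 of the 72 genes, for 7738 of the genes tested for a change in counts and for 27305 genes in all. The ETS letters stood in 25 of the 63 promoters (39.7%), against 21.3% of those of tested genes and 10.7% of all promoters. The YY1 letters stood in 22 (34.9%), against 8.45% and 6.06%. The NRF1 letters stood in 7 (11.1%), against 6.99% and 4.13%. CCAAT was found in 20 (31.7%), against 38.3% and 35.7%, and the TATA letters TATAAA in 2 (3.17%), against 5.0% and 12%. These shares were not tested against each other. The printed promoters of MRPL40 and MRPL3 both hold an ETS match, and the counts of MRPL40 fell while those of MRPL3 rose. They are 2 of the 25 genes with these letters, and any link of letters and change was not tested. Over these longer promoters MRPL44 held a CCAAT match, MRPL52 also held the ETS and NRF1 letters, and MRPS27 and MRPS30 also held the YY1 letters. A match is a run of letters and not a measured site.

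Total counts per library ran from 188686 to 381471, and the 4 libraries of a culture were summed to 776871 to 1396056 counts. The 16 pairs of libraries that came from the same cDNA differed by less than the sampling noise, with chi-square values of 0.327 to 0.594 per degree of freedom, and were counted as 1 sample. Of the 7 HEK293 markers 6 were in the table and each had a count, led by VIM and LIN28B. As a share of total counts, without TMM scaling, their sum ran from 318 to 417 CPM at 0 min and from 464 to 491 CPM at 30 min. The blood markers PTPRC, CD3E, HBB and HBG1, the liver markers ALB and AFP and the fibroblast markers COL1A2 and DCN were at 0 in every culture. Summed liver markers, also as a share of total counts, ran from 0 to 1.64 CPM at 0 min and from 12.9 to 17.9 CPM at 30 min. Nearly all came from APOA1, and their part in the results below was not tested. Scaling factors by the trimmed mean of M values (TMM, which takes most genes as unchanged) were 0.637 and 0.684 at 0 min and 1.10 to 1.23 at the later times.

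Together the 72 genes took a smaller share of the counted RNA once 4-thiouracil had been present for 5 min, and the share stayed low. They held 1.71% and 1.74% of all counts in the 0 min cultures, 1.10% and 1.09% at 5 min, 1.04% and 1.22% at 15 min and 1.03% and 1.02% at 30 min. Both 0 min cultures lay above the other 6. The 15 min cultures spanned those of 5 min, and those of 30 min were just lower. At 15 min 61 of the 72 genes were higher in culture 2 than in culture 1, so the wider spread at that time ran through most of the genes. The genes of either subunit took a smaller share at the later times. Large-subunit genes stood at 11538 ± 319 CPM at 0 min, 6909 ± 203.5 at 5 min and 6589 ± 86.0 at 30 min (SD, n = 2 cultures, shares of total counts with no test). Small-subunit genes stood at 5509 ± 93.0, 3955 ± 82.6 and 3562 ± 40.6 CPM at the same times.

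**Figure D1:**
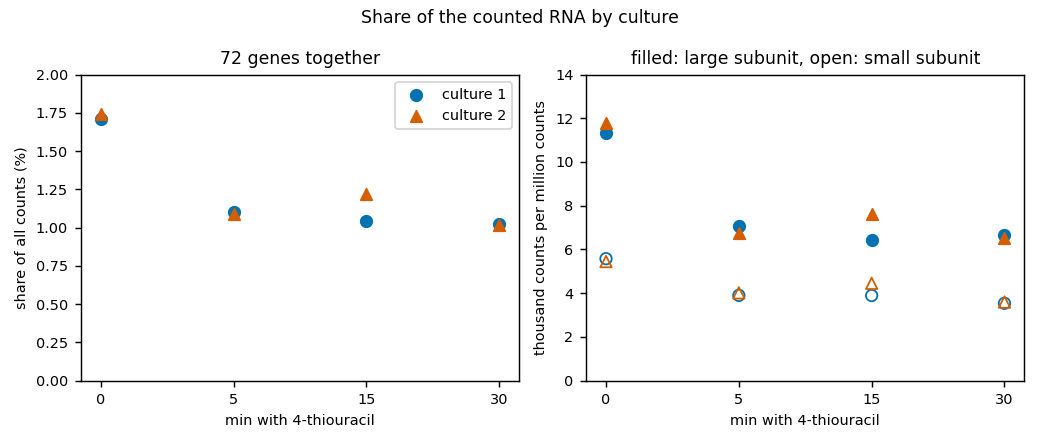
Share of all counts taken by the 72 mitochondrial ribosomal protein genes (left, percent) against minutes with 4-thiouracil. Right, CPM of the genes of each subunit as shares of total counts (filled for large, open for small). Circles are culture 1 and triangles culture 2. The 0 min cultures, at 1.71% and 1.74%, lie above all later cultures.

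Gene by gene, the decrease was broad. Each gene was tested with edgeR's quasi-likelihood F test over all 10439 genes kept by the count filter, which all 72 passed, at an adjusted p under 0.05. From 0 to 5 min 63 of the 72 genes fell and 2 rose, where 26.0% of all genes tested fell and 28.7% rose. The median log2 fold change of the 72 was -1.42, against 0.10 over all genes tested. At 15 min 61 fell and 2 rose, with 24.7% of all genes falling and 29.8% rising, and the medians were -1.36 and 0.19. At 30 min 59 fell and 2 rose, with 23.9% and 32.1% of all genes, and the medians were -1.58 and 0.35. These 3 comparisons share the 0 min cultures. The p-values rest on the spread between 2 cultures per time.

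How far the genes fell depended on the scaling, which shifts all genes by nearly the same amount. TMM takes most genes as unchanged, but at 5 min 26.0% of all genes tested fell and 28.7% rose. The assumption may not hold here, and which scale is closer to the true changes was not tested. With library totals as the only scaling the genes' medians were -0.68, -0.59 and -0.70 at 5, 15 and 30 min, and the medians of all genes moved up to 0.83, 0.96 and 1.22. Counts of genes by totals alone were 43 lower and 3 higher at 5 min, 40 and 4 at 15 min, and 41 and 8 at 30 min. All fold changes below are on the TMM scale, with the standard error of the fit.

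**Figure D2:**
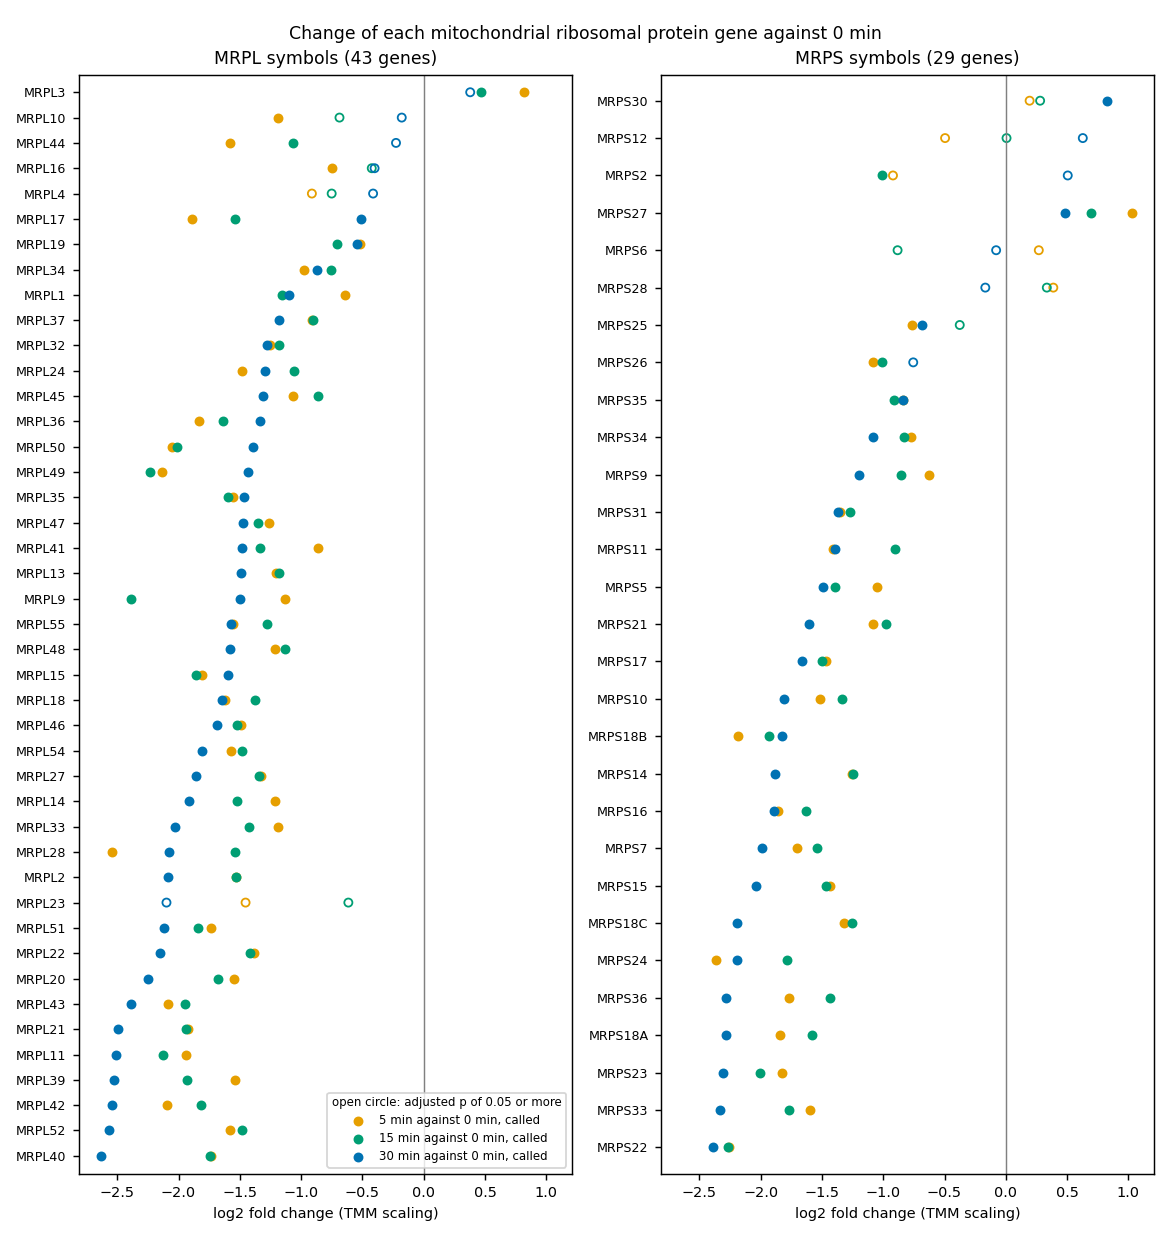
Log2 fold change (TMM scaling) of each of the 72 genes at 5, 15 and 30 min against 0 min, ordered by the change at 30 min, MRPL symbols left and MRPS symbols right; filled circles passed an adjusted p of 0.05 and open circles did not. Most genes lie to the left of 0, around medians of -1.42, -1.36 and -1.58, and MRPL3, MRPS27 and MRPS30 lie to the right of 0 at every time.

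Among large-subunit genes, 41 of 45 fell and 1 rose at 5 min, 39 fell and 1 rose at 15 min, and 38 fell and 1 rose at 30 min. MRPL51, which encodes a protein found in mitochondrial but not bacterial ribosomes, was counted at 1404 and 1764 CPM in the 0 min cultures, 489 and 461 at 5 min, 394 and 492 at 15 min, and 341 and 389 at 30 min. Its 0 min cultures lay far above the other 6, and its log2 fold change was -1.74 ± 0.19 (adjusted p = 5.82e-10) at 5 min and -2.12 ± 0.19 (adjusted p = 5.28e-12) at 30 min. MRPL20, whose bacterial counterpart binds ribosomal RNA early in assembly of the large subunit, stood at 1301 and 1552 CPM in the 0 min cultures, 496 and 481 at 5 min, 356 and 537 at 15 min, and 351 and 247 at 30 min. The 0 min cultures did not overlap with any later one, and the change was -1.55 ± 0.20 (adjusted p = 2.77e-08) at 5 min and -2.25 ± 0.20 (adjusted p = 7.83e-12) at 30 min. MRPL13, with a bacterial counterpart of the same number, stood at 1077 and 1217 CPM in the 0 min cultures, 536 and 462 at 5 min, 474 and 537 at 15 min, and 375 and 440.2 at 30 min. It fell by less than these 2 genes, at -1.20 ± 0.18 (adjusted p = 5.11e-07) and -1.49 ± 0.18 (adjusted p = 6.55e-09); whether these fold changes differ was not tested.

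The largest decreases at 30 min were those of MRPL40, MRPL52 and MRPL42, all without a bacterial counterpart. MRPL40 stood at 519 and 621 CPM in the 0 min cultures, 152 and 187 at 5 min, 132 and 208 at 15 min, and 83.5 and 100.2 at 30 min. MRPL52 stood at 621 and 531 CPM in the 0 min cultures, 185 and 199.9 at 5 min, 176 and 238 at 15 min, and 111 and 83.6 at 30 min. In both genes every culture of a later time lay below both 0 min cultures, and the 30 min cultures were below all others. The log2 fold change at 30 min was -2.63 ± 0.20 (adjusted p = 2.00e-13) for MRPL40, -2.57 ± 0.19 (adjusted p = 1.20e-13) for MRPL52 and -2.54 ± 0.21 (adjusted p = 1.06e-12) for MRPL42. MRPL42 stood at 543 and 471 CPM in the 0 min cultures, 126 and 113 at 5 min, 105 and 183 at 15 min, and 72.7 and 101 at 30 min. Its 5 and 15 min cultures overlapped, those of 30 min were lower, and its step from 5 to 30 min was -0.45 ± 0.22 (adjusted p = 0.194). MRPL39, whose protein is related to threonyl-tRNA synthetase, stood at 456 and 545 CPM in the 0 min cultures, 181 and 164 at 5 min, 113 and 148 at 15 min, and 93.7 and 79.3 at 30 min. It fell by 1.54 ± 0.18 on the log2 scale at 5 min and by 2.53 ± 0.19 at 30 min (adjusted p = 5.10e-09 and 1.20e-13), and its 30 min cultures were the lowest.

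At 5 min the largest decrease was that of MRPL28, a gene with few counts. MRPL28 stood at 50.8 and 52.5 CPM in the 0 min cultures, 14.2 and 4.95 at 5 min, 14.2 and 21.2 at 15 min, and 14.4 and 9.84 at 30 min. It was low in all later cultures, with log2 fold changes of -2.54 ± 0.50 (adjusted p = 4.59e-05) at 5 min, -1.54 ± 0.44 (adjusted p = 0.00316) at 15 min and -2.08 ± 0.45 (adjusted p = 1.73e-04) at 30 min. The 15 min call was lost without culture 1 of that time (-1.25). MRPL9, the counterpart of a long bacterial protein that reaches out from the large subunit, had the largest decrease at 15 min and stood at 38.7 and 103 CPM in the 0 min cultures, 41.3 and 24 at 5 min, 18.7 and 7.52 at 15 min, and 28.8 and 20.3 at 30 min. Its 2 cultures at 0 min differed widely, and the 5 min cultures overlapped with them. The log2 fold change was -1.13 ± 0.42 (adjusted p = 0.0202) at 5 min, -2.39 ± 0.44 (adjusted p = 1.90e-05) at 15 min and -1.50 ± 0.41 (adjusted p = 0.00204) at 30 min. Without culture 2 of 0 min it was -0.26 at 5 min and -0.63 at 30 min, and without culture 2 of 5 min -0.73 at 5 min, none of which passed the test. MRPL49 stood at 204 and 226 CPM in the 0 min cultures, 55.5 and 43.8 at 5 min, 44 and 47.2 at 15 min, and 85.3 and 73.2 at 30 min. It was lowest at 5 and 15 min, with -2.23 ± 0.23 (adjusted p = 3.56e-10) at 15 min and -1.44 ± 0.22 (adjusted p = 6.84e-07) at 30 min, and its change from 5 to 30 min missed the threshold (0.70 ± 0.24, adjusted p = 0.0528). In the annotation MRPL49 overlaps FAU and SYVN1 on the other strand, and the labels do not state which strand was counted.

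Of the 26 small-subunit genes 21 fell and 1 rose at 5 min, 21 and 1 at 15 min, and 20 and 1 at 30 min. The medians at 5 min were -1.49 for the large and -1.29 for the small subunit, and the subunits were not tested against each other. MRPS21, counterpart of the bacterial S21 protein, was counted at 893 and 938 CPM in the 0 min cultures, 368 and 489 at 5 min, 408 and 519.7 at 15 min, and 271 and 331 at 30 min. The 0 min cultures lay above the rest, with -1.09 ± 0.19 (adjusted p = 5.20e-06) at 5 min and -1.60 ± 0.19 (adjusted p = 3.09e-09) at 30 min. By totals alone its change was -0.35 at 5 min and -0.21 at 15 min, neither past the threshold. MRPS33, a mitochondria-specific protein, stood at 892 and 871 CPM in the 0 min cultures, 339 and 248 at 5 min, 237 and 279.7 at 15 min, and 167 and 184 at 30 min. It fell by 1.60 ± 0.18 on the log2 scale at 5 min and by 2.33 ± 0.19 at 30 min (adjusted p = 1.80e-09 and 3.86e-13), and the cultures of 0, 5 and 30 min did not overlap.

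MRPS22, a mitochondria-specific protein of the small subunit, had one of the 3 largest decreases at both 5 and 15 min. It stood at 239 and 275 CPM in the 0 min cultures, 49.6 and 56.5 at 5 min, 49.8 and 56.8 at 15 min, and 52.2 and 45.5 at 30 min. The low level was reached by 5 min, with log2 fold changes of -2.26 ± 0.23 (adjusted p = 1.77e-10) at 5 min and -2.39 ± 0.22 (adjusted p = 1.68e-11) at 30 min, and the 6 later cultures overlapped. MRPS25, also mitochondria-specific, had smaller changes and stood at 602 and 641 CPM in the 0 min cultures, 341 and 388 at 5 min, 407 and 551 at 15 min, and 404 and 369 at 30 min. All later cultures lay below those of 0 min, with log2 fold changes at 5 and 30 min of -0.77 ± 0.18 (adjusted p = 5.06e-04) and -0.68 ± 0.18 (adjusted p = 0.00142), and the 15 min change of -0.38 ± 0.18 missed the threshold (adjusted p = 0.0736). By totals alone MRPS25 was at -0.03 at 5 min and at 0.20 at 30 min, so its direction at 30 min followed the scaling. MRPS22 overlaps COPB2 and MRPS25 overlaps NR2C2 on the other strand.

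Humans have 3 paralogs of the bacterial S18 protein, and they lie in different places: MRPS18B and MRPS18C in the small subunit and MRPS18A in the large. MRPS18A stood at 283 and 326 CPM in the 0 min cultures, 74.3 and 92.6 at 5 min, 91.8 and 111 at 15 min, and 56.5 and 68.2 at 30 min. MRPS18B stood at 336 and 293 CPM in the 0 min cultures, 61.4 and 75.6 at 5 min, 75 and 90.3 at 15 min, and 88.9 and 88.5 at 30 min. MRPS18C stood at 319 and 445 CPM in the 0 min cultures, 137 and 166 at 5 min, 153 and 165 at 15 min, and 87.7 and 78.7 at 30 min. All 3 were highest at 0 min with no overlap. At 5 min the log2 fold change was -1.85 ± 0.21 for MRPS18A, -2.18 ± 0.21 for MRPS18B and -1.32 ± 0.19 for MRPS18C (adjusted p = 1.50e-09, 4.06e-11 and 2.30e-07). From 5 to 30 min MRPS18C fell again, by 0.87 ± 0.20 (adjusted p = 0.00251), MRPS18A was at -0.44 ± 0.22 (adjusted p = 0.203) and MRPS18B at 0.35 ± 0.21 (adjusted p = 0.306). The fold changes of the paralogs were not tested against each other, and MRPS18B overlaps PPP1R10 on the other strand.

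MRPS36, the gene that bears the name but encodes no ribosomal protein, stood at 261 and 293 CPM in the 0 min cultures, 75.5 and 85.5 at 5 min, 91.2 and 114 at 15 min, and 55.9 and 57.8 at 30 min. Its cultures of 0 min lay above all later ones, and it fell like most of the others, by 1.77 ± 0.21 at 5 min and 2.28 ± 0.21 at 30 min on the log2 scale (adjusted p = 3.87e-09 and 9.24e-12).

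Most genes with a bacterial counterpart and most without one fell, and no difference between the classes was tested. At 5 min 37 of 44 genes with a bacterial counterpart fell and 1 rose, with a median of -1.32, and 25 of 27 mitochondria-specific genes fell and 1 rose, with a median of -1.55. At 30 min 35 and 0 of the 44 and 23 and 2 of the 27 were lower and higher, with medians of -1.55 and -1.57. At an unadjusted p under 0.05 in edgeR's test 1 of the 44, MRPL3, was higher at 30 min. Of the S18 paralogs, MRPS18A and MRPS18C are counted here with the first class and MRPS18B with the second. With MRPS18B in the first class too, a choice made after the data were seen, 38 of 45 and 24 of 26 genes fell at 5 min, with medians of -1.33 and -1.55.

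A few genes went the other way. MRPS27, whose protein carries pentatricopeptide repeats, a fold that binds RNA, stood at 183 and 204 CPM in the 0 min cultures, 379 and 407 at 5 min, 324 and 301 at 15 min, and 247 and 292 at 30 min. All 6 later cultures lay above both 0 min cultures, with the highest at 5 min. The log2 fold change was 1.03 ± 0.18 (adjusted p = 7.34e-06) at 5 min, 0.70 ± 0.18 (adjusted p = 0.00122) at 15 min and 0.48 ± 0.18 (adjusted p = 0.0213) at 30 min, and it fell by 0.54 ± 0.17 from 5 to 30 min (adjusted p = 0.0264). The call at 30 min was lost with relative log expression (RLE) scaling and with DESeq2 (0.31 in both), without culture 1 of 0 min (0.43) and without culture 2 of 30 min (0.39). The later fall was not called without culture 1 or 2 of 5 min (-0.60 and -0.48) or of 30 min (-0.43 and -0.67). PTCD2 overlaps MRPS27 on the other strand.

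MRPL3, whose bacterial counterpart reaches toward the peptidyl transferase centre, stood at 163 and 149.8 CPM in the 0 min cultures, 256 and 296 at 5 min, 217 and 217 at 15 min, and 186 and 222 at 30 min. Here too the 6 later cultures lay above those of 0 min. The log2 fold change was 0.82 ± 0.19 (adjusted p = 2.79e-04) at 5 min, 0.47 ± 0.19 (adjusted p = 0.0323) at 15 min and 0.38 ± 0.19 (adjusted p = 0.0797) at 30 min. The 15 min call was lost with RLE scaling or DESeq2 (0.37 in both), with 1 library per cDNA (0.34), and without culture 2 of 0 min (0.44) or either culture of 15 min (0.50 and 0.51). MRPS30, the large-subunit gene with an MRPS symbol, stood at 39.9 and 29.3 CPM in the 0 min cultures, 42.5 and 38.2 at 5 min, 43.3 and 41.7 at 15 min, and 66.1 and 58.4 at 30 min. Its 15 and 30 min cultures lay above those of 0 min, and the log2 fold change was 0.19 ± 0.34 (adjusted p = 0.649) at 5 min and 0.83 ± 0.31 (adjusted p = 0.0238) at 30 min. The 30 min call was lost with RLE scaling or DESeq2 (0.66 in both), without culture 2 of 0 min (0.66) and without culture 1 of 30 min (0.77). At 30 min an RLE or DESeq2 fit called 0 of the 72 genes higher, with 1 and 0 at an unadjusted p under 0.05.

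Between 5 and 30 min 52 of the 72 genes passed no test, and those that did went in both directions. In the test of 30 against 5 min 14 of the 72 fell and 6 rose, where 6.56% of all genes tested fell and 6.0% rose, and the medians were -0.29 and -0.03. The split moved with the settings: 21 lower and 4 higher with RLE, 17 and 3 with DESeq2, and 9 and 8 both by totals alone and with no filter on low counts. It also moved with single cultures. Without culture 1 or 2 of 5 min 8 and 5 genes fell and 4 and 4 rose, and without culture 1 or 2 of 30 min 6 and 6 fell and 3 and 4 rose. The 6 genes that rose were MRPL10, MRPL17, MRPL44, MRPL50, MRPS2 and MRPS12. The 14 that fell were MRPL14, MRPL20, MRPL21, MRPL22, MRPL33, MRPL39, MRPL40, MRPL52, MRPS9, MRPS14, MRPS15, MRPS18C, MRPS27 and MRPS33.

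MRPL17, whose bacterial counterpart lies at the exit of the peptide tunnel, had the smallest adjusted p of those that rose. It stood at 568 and 658 CPM in the 0 min cultures, 140.4 and 187 at 5 min, 172 and 249.6 at 15 min, and 441 and 417 at 30 min. The 5 and 15 min cultures overlapped and were the lowest, and the 30 min cultures lay above them and below those of 0 min. Its log2 fold change was -1.89 ± 0.20 (adjusted p = 2.34e-10) at 5 min, -0.51 ± 0.18 (adjusted p = 0.0158) at 30 min and 1.38 ± 0.19 (adjusted p = 2.53e-06) from 5 to 30 min. At 30 min against 0 min it went to 0.37 by totals alone, and the call was lost without culture 2 of 0 min (-0.38) or either 30 min culture (-0.52 and -0.45). MRPL44, whose protein has a fold related to ribonuclease III, stood at 121 and 119 CPM in the 0 min cultures, 50.7 and 31.8 at 5 min, 49.1 and 65.6 at 15 min, and 85.3 and 119.9 at 30 min. Culture 2 of 30 min reached the 0 min level, and both 30 min cultures lay above those of 5 and 15 min. From 5 to 30 min the change was 1.36 ± 0.27 (adjusted p = 6.64e-04), and at 30 min against 0 min it was -0.23 ± 0.25 (adjusted p = 0.456).

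MRPS2, a small-subunit gene with few counts, stood at 25.4 and 51 CPM in the 0 min cultures, 17.7 and 21.2 at 5 min, 22.6 and 14.4 at 15 min, and 60.7 and 45.5 at 30 min. The 30 min cultures were clear of those of 5 and 15 min but not of 0 min. It rose by 1.43 ± 0.37 from 5 to 30 min (adjusted p = 0.00892), and the call was lost without culture 1 of 5 min (1.31) or of 30 min (1.21). Its fall at 15 min, -1.01 ± 0.40 (adjusted p = 0.0332), was lost in 6 of the other fits and stood at -0.42 without culture 2 of 0 min. MRPS12, whose bacterial counterpart helps to read the code in the decoding centre, stood at 62.8 and 24.7 CPM in the 0 min cultures, 20.1 and 41 at 5 min, 42.7 and 47.9 at 15 min, and 55.9 and 83.6 at 30 min. Its 0 min cultures overlapped with those of every other time, and no change against 0 min passed the test, while the step from 5 to 30 min was 1.12 ± 0.34 (adjusted p = 0.0239). MRPL10, which carries the stalk of the large subunit, and MRPL50, a mitochondria-specific protein, rose over the same step by 1.01 ± 0.33 and 0.66 ± 0.22 (adjusted p = 0.0373 and 0.0419). The calls of MRPS12, MRPL10 and MRPL50 were not followed one by one without single cultures, so they cannot be taken as stable.

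Among the genes that fell again, MRPL52 and MRPL39 had the largest steps from 5 to 30 min, at -0.99 ± 0.20 (adjusted p = 6.01e-04) and -0.99 ± 0.19 (adjusted p = 5.57e-04), followed by MRPL40 at -0.90 ± 0.21 (adjusted p = 0.00291). The step of MRPL40 lost its call without culture 2 of 5 min (-0.72) or culture 1 of 30 min (-0.77). The call of MRPL20 ended without culture 1 or 2 of 5 min (-0.69 and -0.72) or culture 2 of 30 min (-0.48). That of MRPS18C ended without culture 2 of 5 or 30 min (-0.71 and -0.80). That of MRPS33 ended without culture 1 of 5 or 30 min (-0.51 and -0.66). Only genes covered by the naming rule were followed one by one in this way. The calls of MRPL14, MRPL21, MRPL22, MRPL33, MRPS9, MRPS14 and MRPS15 were not, so they cannot be taken as stable.

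**Figure D3:**
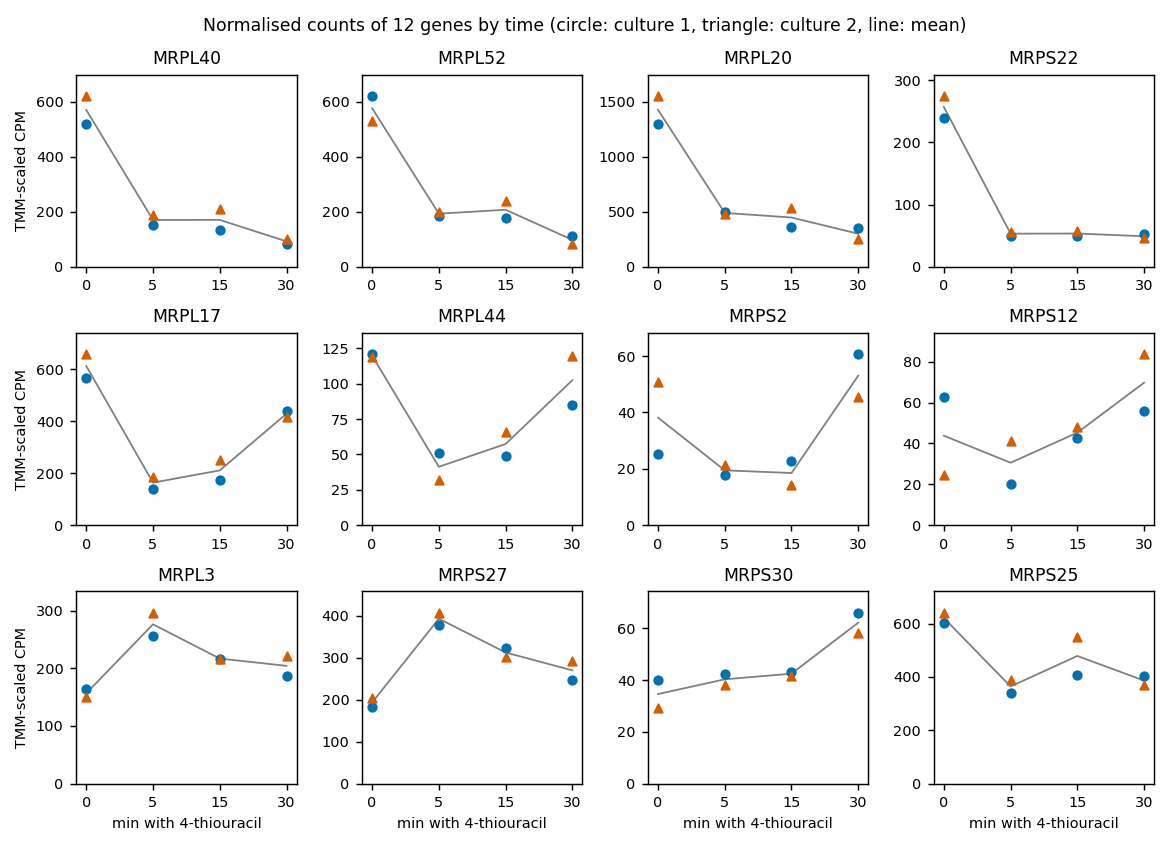
TMM-scaled CPM of 12 genes against minutes with 4-thiouracil (circles culture 1, triangles culture 2, line the mean of both, each axis from 0). MRPL40, MRPL52, MRPL20 and MRPS22 drop after 0 min, MRPL17, MRPL44, MRPS2 and MRPS12 are low at 5 min and higher at 30 min, MRPL3, MRPS27 and MRPS30 lie above 0 min, and MRPS25 has smaller changes.

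Several genes passed no test against 0 min at 1 or more times. At 5 min these were MRPL4, MRPL23, MRPS2, MRPS6, MRPS12, MRPS28 and MRPS30. Counts were few in most of them: MRPS28, the counterpart of bacterial S1, stood at 7.25 and 9.27 CPM in the 0 min cultures, 11.8 and 9.89 at 5 min, 7.76 and 13 at 15 min, and 9.01 and 5.53 at 30 min, and MRPL23 at 2.42 and 20.1 CPM in the 0 min cultures, 2.36 and 4.95 at 5 min, 7.11 and 6.84 at 15 min, and 2.40 and 2.46 at 30 min. A single culture of 0 min held most of the MRPL23 counts, and its log2 fold change of -2.10 ± 0.98 at 30 min had a wide error (adjusted p = 0.0672). At this depth smaller changes of such genes were not detectable. At 15 min the genes not called were MRPL4, MRPL10, MRPL16, MRPL23, MRPS6, MRPS12, MRPS25, MRPS28 and MRPS30. MRPL16, with more counts, stood at 162 and 218 CPM in the 0 min cultures, 124 and 103 at 5 min, 122 and 159 at 15 min, and 130.3 and 156 at 30 min. It fell by 0.75 ± 0.21 at 5 min (adjusted p = 0.00321) and was at -0.42 ± 0.20 (adjusted p = 0.0777) at 15 min and -0.40 ± 0.20 (adjusted p = 0.0913) at 30 min. MRPL3, MRPL4, MRPL10, MRPL16, MRPL23, MRPL44, MRPS2, MRPS6, MRPS12, MRPS26 and MRPS28 were not called at 30 min.

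These genes are shorter than most. By GENCODE 29 on GRCh38, matched by symbol, their annotated spans (all transcripts of a gene) ran from 1.27 to 351 kb with a median of 12.6 kb, against 38.0 kb over the 9532 tested genes with a span. Across all those genes the change against 0 min went with span, with Spearman coefficients of 0.541, 0.486 and 0.399 for 5, 15 and 30 min. Across the 72 genes it was weaker, at 0.287, 0.218 and 0.0257. These are descriptions across genes that share the same libraries. At 5 min the 50 genes spanning up to 20 kb had a median of -1.54, against -0.99 over all 3000 genes of that size. The 22 longer ones had a median of -1.06, against 0.58 over all 6532 longer genes. Thus the medians of the 72 were lower than those of other genes in both size classes, and by more among longer genes. From 5 to 30 min the coefficient was -0.323 across the 72 genes and -0.286 across all. All 6 genes that rose over that step were among the 50 that spanned up to 20 kb, as were 9 of the 14 that fell. Of the 3 genes with an increase against 0 min, MRPS27 spans 101 kb, MRPL3 40.8 kb and MRPS30 11.5 kb.

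**Figure D4:**
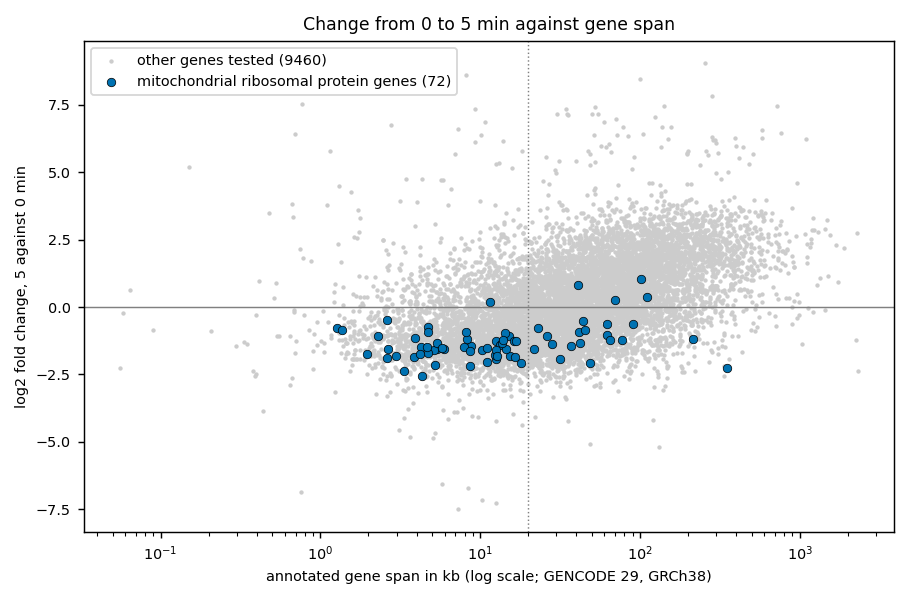
Log2 fold change from 0 to 5 min (TMM scaling) against annotated gene span in kb on a log axis, with the 72 genes in blue, the other tested genes in grey and a dotted line at 20 kb. Grey points climb from left to right, while most blue points lie below 0. The longest of the 72 genes, MRPS22 (351 kb) and MRPL33 (216 kb), lie below 0, at -2.26 and -1.19. MRPS28 (112 kb) and MRPS27 (101 kb) lie above 0, and the change of MRPS28 did not pass the test.

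Neighbouring and copied genes could touch these counts. In the annotation 16 of the 72 genes overlap another counted gene on the opposite strand and 3 (MRPL28, MRPS16 and MRPS5) on the same strand, and MRPL51 overlaps NCAPD2, MRPL13 overlaps MTBP and MRPL28 overlaps TMEM8A. In addition 31 genes have at least 1 pseudogene named after them. With overlapping genes left out, 45 of 53 fell and 1 rose at 5 min and 41 fell and 1 rose at 30 min. In the 30 genes with neither an overlap nor a named pseudogene, 24 fell at 5 min with a median of -1.39, and 20 fell and 1 rose at 30 min with a median of -1.32. Among those 30 genes edgeR called 0 higher at 5 min, and none at an unadjusted p under 0.05.

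Split by promoter letters, the genes of either class had medians below 0. At 5 min the 25 genes with the ETS letters had a median of -1.52 and the 38 without had -1.32. At 30 min the medians were -1.89 and -1.40. With and without the YY1 letters they were -1.64 and -1.21 at 5 min, over 22 and 41 genes. The 7 genes with the NRF1 letters all fell at 5 min, at 15 min and at 30 min, with medians of -1.43, -1.47 and -2.04, and MRPL17 had the smallest change of them at 30 min. Of the 56 without these letters 49, 48 and 46 fell at those times, with medians of -1.34, -1.34 and -1.50. CCAAT genes had a median of -1.26 at 5 min and the 43 others -1.49. No difference between these classes was tested.

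Other parts of the mitochondrial translation system went in both directions, in lists written with earlier results known. The counts at 5 min below stand beside 26.0% of all genes tested that fell, 28.7% that rose and a median of 0.10. Of 8 further ribosomal subunits with other names, 7 fell at 5 min and their median was -1.01. Their summed share of total counts was 727 ± 5.06 CPM at 0 min, 732 ± 10.02 at 5 min and 751 ± 4.70 at 15 min (SD, n = 2 cultures), so on that scale the mean of the list was at no lower level at 5 and 15 min. CHCHD1, a small-subunit protein, went from 362 ± 27.1 CPM at 0 min to 145 ± 2.56 at 5 min (log2 fold change -1.32 ± 0.18, adjusted p = 7.74e-08). PTCD3, a pentatricopeptide repeat protein of the small subunit like MRPS27, stood at 197 ± 1.45 CPM at 0 min and at 283 ± 5.59 at 15 min (0.52 ± 0.18, adjusted p = 0.0143), and its change at 5 min was 0.35 ± 0.18 (adjusted p = 0.108).

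Of 15 translation factors and messenger RNA helpers 6 fell and 4 rose at 5 min, with a median of -0.54. Elongation factor TUFM fell by 2.06 ± 0.18 (adjusted p = 8.31e-12) and SLIRP, which stabilises mitochondrial messenger RNAs, by 1.34 ± 0.19 (adjusted p = 2.59e-07). LRPPRC, the partner of SLIRP, rose by 1.94 ± 0.21 (adjusted p = 4.50e-10) and was chosen after its values were seen. Of 21 factors that assemble the ribosome or modify its RNA, 10 fell and 2 rose at 5 min, with a median of -0.55. As a share of total counts this list went from 1185 ± 4.19 CPM at 0 min to 1243 ± 101 at 5 min and 1584 ± 25.3 at 30 min. ERAL1, which binds the small ribosomal RNA, fell by 1.16 ± 0.21 (adjusted p = 8.59e-06), and TFB1M, which methylates it, rose by 0.52 ± 0.21 (adjusted p = 0.0361). Of the 18 mitochondrial aminoacyl-tRNA synthetases 4 fell and 4 rose (22.2% each), with a median of 0.10, near the values of all genes tested. As a share of total counts they went from 873 ± 69.2 CPM at 0 min to 1495 ± 130.2 at 5 min. FARS2 rose by 1.76 ± 0.25 (adjusted p = 1.55e-07) and RARS2 was at -0.17 ± 0.19 (adjusted p = 0.46).

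Of 11 genes for transcription and replication of mitochondrial DNA, 3 fell and 1 rose at 5 min, among them SSBP1 (fell by 1.50 ± 0.19) and TFAM (fell by 1.15 ± 0.19), with adjusted p = 2.01e-08 and 3.60e-06. The share that fell, 27.3%, was close to the 26.0% of all genes tested. Of 9 nuclear regulators 1 fell and 3 rose (33.3%) at 5 min, against 28.7% of all genes that rose. At 30 min 1 fell and 5 rose with a median of 0.86, where 32.1% of all genes rose and their median was 0.35. YY1 rose by 0.80 ± 0.25 at 5 min (adjusted p = 0.00585). MYC stood at 70.3 ± 18.6 CPM at 0 min, 51.4 ± 4.25 at 5 min and 435 ± 61.1 at 30 min, a log2 fold change of 2.61 ± 0.21 at 30 min (adjusted p = 8.35e-13).

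Genes for the import of mitochondrial proteins and for cytosolic ribosomes had medians near that of the mitochondrial ribosomal proteins at 5 min. Of 30 import genes 24 fell and 1 rose at 5 min, with a median of -1.40, and the chaperonin HSPD1 fell by 2.36 ± 0.19 and its partner HSPE1 by 1.61 ± 0.20 (adjusted p = 1.45e-12 and 1.63e-08). Of 79 cytosolic ribosomal protein genes 76 fell at 5 min with a median of -1.47, and 77 fell and 1 rose at 30 min with a median of -2.05. From 5 to 30 min 34 of these 79 genes fell, with a median of -0.56, against 14 of the 72 mitochondrial ones with -0.29. The lists were not tested against each other.

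The messenger RNAs that mitochondrial ribosomes translate followed another course. Of 11 mitochondrially encoded messenger RNAs tested 6 fell at 5 min with a median of -0.88, and at 30 min 4 fell and 2 rose with a median of -0.12. From 5 to 30 min 5 of them rose and the median was 0.51. MT-ND1, a subunit of respiratory complex I, stood at 5721 ± 468 CPM at 0 min, 2147 ± 84.0 at 5 min and 4853 ± 59.4 at 30 min, a change of 1.18 ± 0.20 from 5 to 30 min (adjusted p = 9.40e-05). MT-ND3 of the same complex stood at 6802 ± 568, 2643 ± 571 and 3201 ± 191 CPM at those times, and its step from 5 to 30 min was 0.28 ± 0.21 (adjusted p = 0.431). As shares of total counts, these messenger RNAs together held 17971 and 18672 CPM at 0 min and 28631 and 25371 at 30 min, with no overlap. On that scale the ribosomal protein genes over the same cultures went from 17065 and 17393 CPM to 10250 and 10190. The rise of the messenger RNAs from 0 to 30 min was not seen on the TMM scale. There their median was -0.12, and the means of MT-ND1 and MT-ND3 were lower at 30 min than at 0 min.

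**Figure D5:**
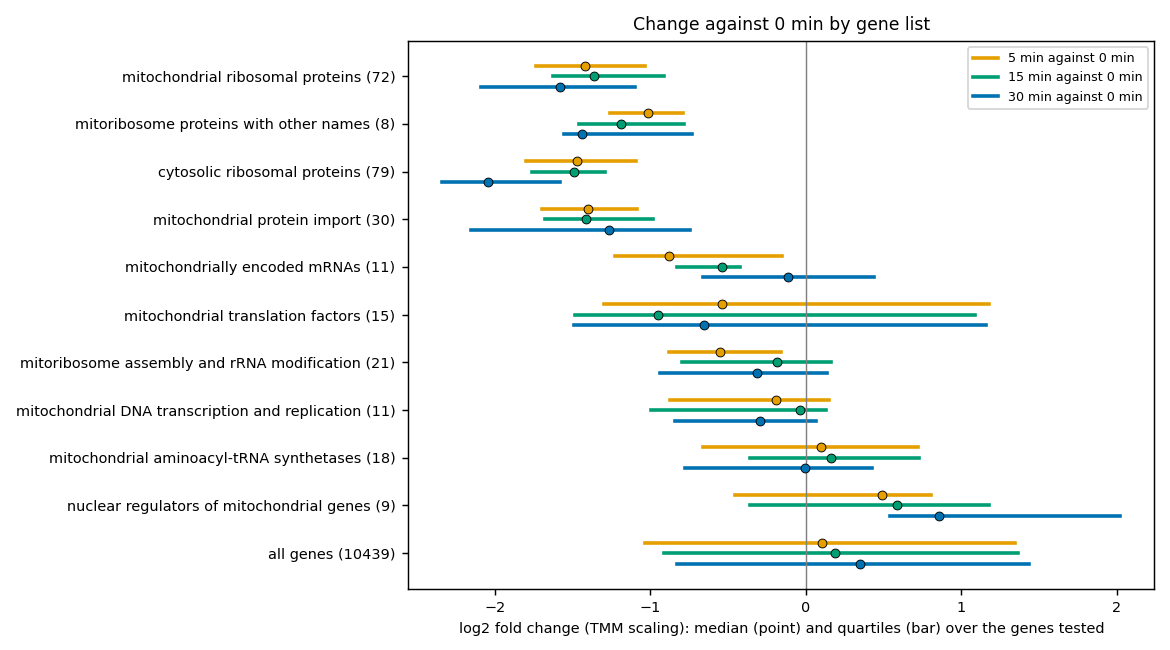
Median (point) and quartiles (bar) of the log2 fold change (TMM scaling) of the genes tested in each list at 5, 15 and 30 min against 0 min, with the number of genes in brackets. Mitochondrial ribosomal proteins, cytosolic ribosomal proteins and protein import have medians of -1.42, -1.47 and -1.40 at 5 min, while that of all genes is 0.10.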

How the data were processed

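RNA-seq counts of 32 libraries from HEK293 cells at 4 incubation times were used. The values used are whole-number counts per gene entry in a table that the authors deposited, and the headers of its columns matched the labels of all 32 libraries. STAR and build hg19 are named in the submitters' processing notes, without a version of STAR. Strand, annotation and the use of molecular identifiers are not given in the sources used here. Counts of the 4 libraries of a culture were summed (776871 to 1396056 per culture), with the culture as the replicate. Libraries of the same cDNA differed by less than the sampling noise, and those of the 2 cDNA preparations of a culture by more (chi-square of 1.14 to 2.29 per degree of freedom).

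The 10439 genes kept by filterByExpr entered a single quasi-likelihood fit of the 8 cultures (edgeR 4.0.16, R 4.3.3, TMM scaling, robust estimation, 4 residual degrees of freedom), with two-sided F tests and Benjamini-Hochberg adjustment over all of them at 0.05. The biological coefficient of variation was 15.3%. Standard errors were derived from the F statistic (log2 fold change over its root). With 2 cultures against 2, exact permutation tests cannot reach 0.05 and were not run. CPM values are TMM-scaled unless called shares of total counts. The fit was also run on simulated counts with known changes in few genes, as many up as down. That run cannot tell how the scaling behaves when many genes change, as they did here.

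Alternatives were RLE scaling, totals alone, DESeq2 1.42.0, no filter, a replicate block, 1 library per cDNA, a minimum of 200 counts, and leaving out each culture. The genes and lists were chosen with earlier results of these data known. The rule gave per-culture values to the 3 genes of each subunit with the highest mean CPM, the 3 largest called increases and decreases of each comparison (mean CPM of at least 10, cultures without overlap), the MRPS18 paralogs, MRPS30 and MRPS36, and for other lists the 2 genes with the most counts. Values of MRPL10, MRPL16, MRPL23, MRPL50, MRPS12 and MRPS28 were added after they were seen. Spans and overlaps came from GENCODE 29 and promoters from RefSeq, both on GRCh38 and matched by symbol, so no coordinates of the counted entries are given.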

Additional observations from a re-analysis of the deposited data

How the results depend on the processing

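The 8 counts of lower and higher genes were recomputed under 7 other settings and without each culture. From 0 to 5 min no count moved by over 1.5 times, with 54 to 62 lower and 2 higher when a culture was left out. At 15 min totals alone gave 40 lower and 4 higher, and RLE, DESeq2 and 1 library per cDNA each gave 1 higher. Without a culture the counts were 55 to 61 lower and 1 to 2 higher. At 30 min RLE and DESeq2 gave 0 higher (1 and 0 at an unadjusted p under 0.05) and totals alone 8, and without a culture 55 to 60 were lower and 1 to 3 higher. From 5 to 30 min totals alone and no filter each gave 9 lower, DESeq2 gave 3 higher, and without a culture 5 to 16 were lower and 3 to 8 higher. The cause was not tested. By totals alone MRPL17 and MRPS25 turned at 30 min against 0 min, to 0.37 and 0.20. Over 75 single-gene results and 1050 alternative values, 996 kept their direction and side of the threshold, 52 lost the call and 2 turned.

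With the replicate block the counts were 63 lower and 2 higher at 5 min, 60 and 2 at 15 min, 59 and 2 at 30 min, and 13 and 5 from 5 to 30 min. Deviations of cultures with the same number correlated at -0.0324 to 0.0809 over 6 pairs of times, none over 0.1. Such values cannot tell whether cultures with the same number were prepared together, and the labels do not state it. Depth limits genes such as MRPL23, MRPS24 and MRPS28, with 53 to 91 counts over all libraries. Without a culture, its time rests on 1 sample that is assumed to vary like the others.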
